A study of Gallus gallus with 12 samples.

Results

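Gene expression in the chicken uterus (Gallus gallus) was compared between 300 and 120 days of age. The comparison takes the 6 uterus libraries among the 12 of the series, 3 from Lohmann layers of 300 days and 3 from Lohmann layers of 120 days. The titles of all 6 say Lohmann layers, which are commercial egg-laying hens, without naming a line, and the labels name no treatment. The other 6 libraries come from the magnum of layers of the same 2 ages, with 3 libraries at each age. The series title names prelaying and laying hens, and its design text asks how these oviduct segments differ in function and in defense. No sample title gives the laying state, so a change with age and a change with laying state cannot be told apart here. No label says whether the 3 libraries of an age came from separate hens. A p-value here covers the spread among libraries alone, part of which may be technical. For the calls of genes that spread comes from all 12 libraries, magnum included.

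The uterus, also called the shell gland, is the oviduct segment in which the eggshell is laid down around the egg. Its epithelium secretes calcium and bicarbonate into the uterine fluid, together with the proteins that form the organic matrix of the shell, and this activity begins with sexual maturity under the influence of steroid hormones. The magnum lies upstream and secretes the egg white. The deposited tables name genes by numbered identifiers (18241 genes) or as new-gene loci (1579), and 0 of these 19820 names could be matched to RefSeq's chicken gene table. No gene can therefore be tied to a function here, and the uterus label could not be checked against marker genes. Genes are described by their values, their length and their behaviour in the magnum, and 4 are given by identifier.

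The unit is the scaled count, a read count that was brought to a common level across libraries before deposit. Column totals ran from 16376839 to 17274374 scaled counts for the uterus of 300 days and from 14543795 to 15468376 for that of 120 days, and they are not sequencing depth. Low values in each column fell on the truncated multiples of a step, the value of 1 read, from which depth could be estimated. At 300 days that step was 0.756 for replicate 2 and 0.765 for replicate 3. At 120 days it was 0.679 for replicate 1, 0.622 for replicate 2 and 0.659 for replicate 3. The totals then correspond to about 21700000 and 22600000 reads on genes in replicates 2 and 3 of 300 days, and to 21500000, 24900000 and 22100000 in the libraries of 120 days. For replicate 1 at 300 days the steps 0.875 and 0.467 described the values about equally well, so its depth was not resolved. Some 15936 to 15999 genes were listed above 0 in a uterus library at 300 days and 16235 to 16245 at 120 days.

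Of 14883 genes tested, 973 were higher in the uterus at 300 days than at 120 days (6.54%) and 1073 were lower (7.21%), together 2046 genes or 13.7%. The rises had a median log2 change of 1.19 (interquartile range 0.829 to 2.0), and the falls had a median size of 1.93 (1.35 to 2.89) on the same scale. The libraries of 300 days all lay above those of 120 days in 956 of the rises, against 20.4% of the genes tested, and all below them in 1063 of the falls, against 18.9%. The calls favour these orders, since the same libraries made them. Changes below 2-fold made up 377 of the rises and 127 of the falls. The median log2 change of all genes tested was 0.02. The genes that rose held 19.4%, 19.8% and 19.9% of the scaled counts of the 300-day libraries, against 10.2%, 5.90% and 7.42% of the 120-day libraries. The genes that fell held 2.67%, 2.60% and 2.56% at 300 days and 7.58%, 13.2% and 10.5% at 120 days. These shares describe genes chosen by the same libraries. In bulk tissue, fewer cells of a type and less RNA per cell cannot be told apart.

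Calls came from limma (moderated test, log2(scaled count + 1), Benjamini-Hochberg adjusted p below 0.05) fitted to all 12 libraries. Rises made up 47.6% of the calls in the deposited scaling, 36.0% after upper quartile scaling (751 rises, 1334 falls) and 30.5% when each library was divided by its total (320 rises, 728 falls), which moved the median log2 change of all genes to -0.14. Leaving out any 1 uterus library other than 120-day replicate 1 lowered the counts to between 390 (without 120-day replicate 2) and 467 rises and between 532 and 577 falls, whereas 1240 rose and 1387 fell without 120-day replicate 1.

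**Figure D1:**
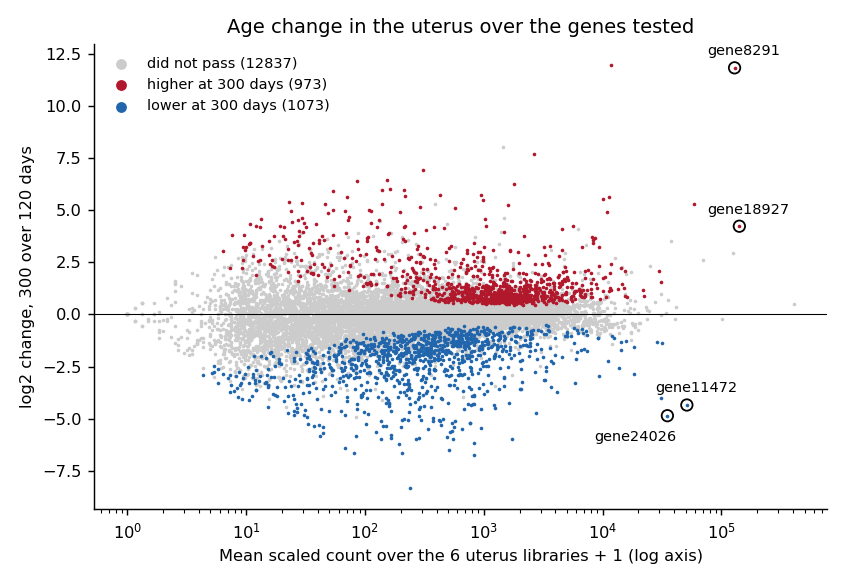
The age change of each of the 14883 genes tested in the uterus (log2, 300 over 120 days) against its mean scaled count over the 6 uterus libraries on a log axis. Red points rose (973) and blue points fell (1073) at an adjusted p below 0.05, grey points did not pass, and circles mark the 4 genes given by identifier. Small rises are dense around a mean of 1000, and falls spread over lower levels.

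The most abundant gene to rise, gene8291 (3000 bases), was close to absent at 120 days and among the leading transcripts at 300 days. It stood at 249439, 208999 and 314064 scaled counts in the 3 uterus libraries at 300 days, against 124, 69 and 38 at 120 days. The lowest 300-day library lay 1690 times above the highest 120-day library, so the ages did not overlap. Per length, gene8291 averaged 3654 ± 854 FPKM at 300 days and 1.05 ± 0.494 FPKM at 120 days (SD, n = 3 each). It ranked 6 among all genes by FPKM at 300 days and 12128 at 120 days. Its log2 change was 11.83 ± 0.36 (SE, adjusted p = 5.74e-09, limma).

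In the magnum gene8291 was listed at 172, 227 and 201 scaled counts at 300 days and at 0 in the 3 libraries of 120 days. The 300-day magnum level was 0.0777% of the 300-day uterus level. Whether reads or RNA of the uterus entered the magnum libraries was not tested. Because of the zeros, neither a magnum fold nor a test of the difference between segments is given for this gene.

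The other named rise, gene18927 (1139 bases), had the highest FPKM of all genes in the uterus at 300 days. It stood at 230623, 283874 and 231383 scaled counts at 300 days, against 90244, 2781 and 9050 at 120 days. The ages did not overlap, but 120-day replicate 1 was far above replicates 2 and 3 of its age. FPKM values averaged 13502 ± 1890 at 300 days and 1614 ± 2217 at 120 days (SD, n = 3 each), and the gene already ranked 13 at 120 days by that mean. The log2 change was 4.23 ± 0.92 (SE, adjusted p = 0.0129, limma), and it was 5.62 without 120-day replicate 1. The call was lost in a fit of the 6 uterus libraries alone (adjusted p = 0.0606) and without 120-day replicate 3 (adjusted p = 0.0509), where the 17 alternatives ranged from 3.96e-05 to 0.0606.

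The 2 leading rises thus differed in 120-day replicate 1. That library held gene18927 at a high level, while gene8291 was low in all 3 libraries of 120 days. In the magnum gene18927 also rose, to 1351, 1390 and 1157 scaled counts at 300 days against 16, 47 and 48 at 120 days. This change was 5.24 ± 0.92 on the log2 scale (SE, adjusted p = 0.00253, limma). The SE is the same as that of the uterus change, since each gene has 1 spread over all groups. It therefore includes the uneven uterus libraries of 120 days. The 300-day magnum level was 0.523% of the 300-day uterus level. As for gene8291, whether uterus reads or RNA entered the magnum libraries was not tested. The age change of the uterus did not pass as different from that of the magnum, at a log2 difference of -1.01 ± 1.30 (SE, adjusted p = 0.741, limma).

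The most abundant gene to fall, gene11472 (6078 bases), stood at 5802, 3979 and 4543 scaled counts in the uterus at 300 days, against 81632, 125561 and 85146 at 120 days. The lowest 120-day library was 14.1 times the highest 300-day library. Per length its level was 29.1 ± 5.35 FPKM at 300 days and 600 ± 139 FPKM at 120 days (SD, n = 3 each). Its rank by FPKM was 2002 at 300 days and 103 at 120 days. The log2 change was -4.34 ± 0.29 (SE, adjusted p = 2.79e-05, limma).

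The other named fall, gene24026 (4539 bases), stood at 2410, 1743 and 1669 scaled counts at 300 days, against 35414, 133023 and 36058 at 120 days. All 3 libraries of 300 days lay below those of 120 days, and 120-day replicate 2 was the highest. FPKM values averaged 27.7 ± 3.51 at 300 days and 813 ± 493 at 120 days (SD, n = 3 each). The log2 change was -4.85 ± 0.73 (SE, adjusted p = 0.00219, limma).

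Both falls were also seen in the magnum. There gene11472 stood at 3826, 2687 and 3709 scaled counts at 300 days against 34580, 59953 and 62551 at 120 days, a log2 change of -3.91 ± 0.29 (SE, adjusted p = 3.8e-05, limma). For gene24026 the magnum values were 652, 636 and 3145 at 300 days against 6417, 34099 and 20252 at 120 days, a log2 change of -3.91 ± 0.73 (SE, adjusted p = 0.00345, limma). The difference in age change between uterus and magnum did not pass for gene11472, at -0.43 ± 0.41 (SE, adjusted p = 0.633, limma). It did not pass for gene24026 either, at -0.95 ± 1.04 (SE, adjusted p = 0.687, limma). As for gene18927, the SE of a magnum change is the same as that of the uterus change.

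**Figure D2:**
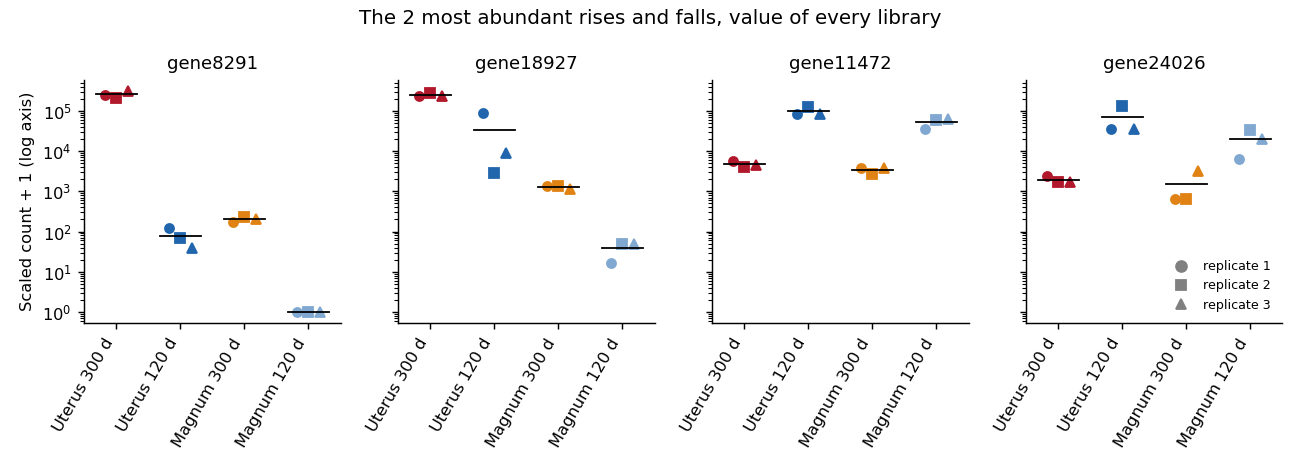
Scaled count plus 1, on a log axis, of the 2 most abundant rises and the 2 most abundant falls of the uterus in every library of the 4 groups. Symbols give the replicate number and bars the group mean. The uterus groups do not overlap for any of the 4 genes, which was a condition of their choice. For gene18927 the 120-day replicate 1 of the uterus stands at 90244.

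At the top of the abundance range, 8 genes averaged 50000 scaled counts or more in the 300-day uterus and 6 did so in the 120-day uterus, with 3 shared by both ages. The 8 genes held 9.46%, 8.95% and 9.36% of the 300-day libraries, and the 6 held 5.10%, 6.12% and 3.59% of the 120-day libraries. Of the 8 genes, 3 rose and 0 fell, and of the 6 genes 0 rose and 3 fell. Among the 126 genes with a mean of 10000 and more over the uterus libraries, 21.4% rose and 11.1% fell. Over all genes tested the shares were 6.54% and 7.21%. The sets of 8 and of 6 genes were each selected by the level at 1 age, which favours that direction. The 126 genes were selected by the mean over both ages.

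The third rise of this set, a gene of 11441 bases, stood at 100408, 115589 and 97577 at 300 days, against 33661, 159 and 3355 at 120 days. Its log2 change of 5.31 ± 1.54 (SE, adjusted p = 0.0412, limma) passed in 11 of 17 alternatives, with adjusted p-values of 0.00258 to 0.115. It missed the threshold in the fit of the 6 uterus libraries alone and without any 1 uterus library other than 120-day replicate 1. The remaining fall, a gene of 5051 bases, stood at 4269, 2948 and 3220 at 300 days against 36873, 82106 and 55156 at 120 days. That change, -4.002 ± 0.39 on the log2 scale (SE, adjusted p = 0.000284, limma), passed in all 17 alternatives.

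In 3 further abundant genes the 300-day libraries all lay above the 120-day libraries and the test was not passed. A gene of 1158 bases had 147192, 222722 and 215345 scaled counts at 300 days against 139125, 4552 and 23791 at 120 days (log2 change 2.96 ± 1.02 SE, adjusted p = 0.0754, limma). A gene of 5593 bases had 105360, 107810 and 129850 at 300 days against 52448, 7199 and 17480 at 120 days (2.60 ± 1.05 SE, adjusted p = 0.120). A gene of 5172 bases had 58802, 48855 and 93724 at 300 days against 14022, 2283 and 5693 at 120 days (3.51 ± 1.29 SE, adjusted p = 0.0899). In each of the 3 the highest 120-day value was that of replicate 1 and the lowest that of replicate 2. Of the 17 alternatives the gene of 1158 bases passed in 3 (adjusted p 0.00267 to 0.254), the gene of 5593 bases in 1 (0.000374 to 0.346) and the gene of 5172 bases in 3 (0.000316 to 0.261). All 3 passed without replicate 1 of both segments at 120 days, and the gene of 1158 bases also passed without replicate 1 of the uterus alone (adjusted p = 0.00714). In the magnum at 300 days these 3 genes stood at 0.681%, 0.127% and 0.127% of their 300-day uterus level.

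The most abundant gene of the uterus, of 5590 bases, did not pass and its ages overlapped. It had 581379, 388050 and 434424 scaled counts at 300 days against 358356, 482975 and 204849 at 120 days (log2 change 0.49 ± 0.77 SE, adjusted p = 0.717, limma). A gene of 1744 bases, at 90675, 89909 and 100212 at 300 days against 93719, 118867 and 117735 at 120 days, did not pass either (-0.23 ± 0.40 SE, adjusted p = 0.745).

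**Figure D3:**
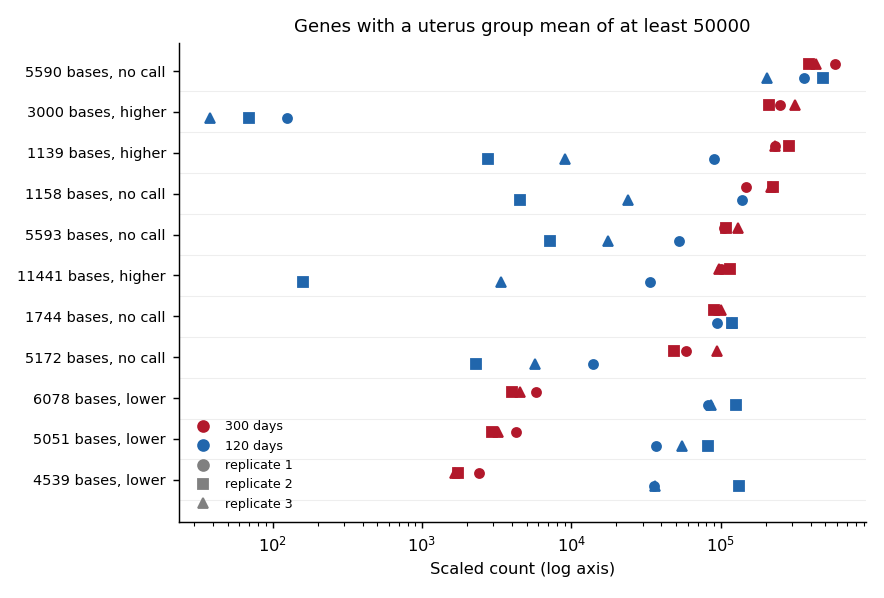
Scaled counts, on a log axis, of the 11 genes that averaged 50000 or more in the 300-day or the 120-day uterus, 1 gene per line with its length and its call. Red symbols are 300-day libraries and blue symbols 120-day libraries, with the replicate number as the symbol. In 6 genes all red symbols lie to the right of the blue ones, and replicate 1 is the rightmost blue symbol in each. The gene of 3000 bases differs from the other 5 in its low 120-day level, at 124 or less.

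The 10 most abundant genes of a library took 10.35%, 9.53% and 10.002% of the scaled counts at 300 days, against 7.10%, 7.75% and 4.72% at 120 days. The ages did not overlap, and the means were 9.96% ± 0.412 at 300 days and 6.52% ± 1.60 at 120 days (SD, n = 3 each). A two-sided exact permutation test gave p = 0.1, the smallest value that 3 against 3 libraries allow. Of the 300-day scaled counts 50% were held by 1085, 1134 and 1084 genes, against 1316, 1193 and 1454 genes at 120 days. With FPKM values the 10 leading genes took 14.2% ± 2.65 at 300 days and 9.09% ± 2.87 at 120 days (SD, n = 3 each, exact permutation p = 0.2).

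Part of the rises stood highest in the uterus at 300 days among all 4 groups. For 491 of the 973 rises (50.5%) the 3 libraries of the 300-day uterus lay above all other 9 libraries, which held for 6.76% of the genes tested. For 272 of the 1073 falls (25.3%) they lay below all other 9 libraries, against 3.92% of the genes tested. The calls favour both orders, since they were made against 3 of these 9 libraries. Of the 3039 genes tested whose 300-day uterus lay above the 120-day uterus, 1006 lay above all 9. Of the 2815 in the reverse order, 583 lay below all 9. In 33 rises the lowest 300-day uterus library was at least 4 times the highest of the other 9 libraries, and in 13 it was at least 10 times. In 16 falls the highest 300-day uterus library was at most 0.1 times the lowest of the other 9. The median 300-day uterus mean of these 16 was 0.0 and the highest was 1.67. A gene listed at 0 in the 300-day uterus meets this rule even where magnum libraries are at 0 too. For such a gene the rule shows no gap to the magnum. The 13 genes held 1.88%, 1.61% and 2.07% of the 300-day uterus libraries. Their share was 0.0054%, 0.00731% and 0.00592% in the uterus at 120 days. These genes were picked by their values in the same libraries, so their size is a description.

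The 13 genes comprised 9 numbered genes and 4 new-gene loci, of 697 to 6186 bases. Apart from gene8291 the most abundant was a short gene of 775 bases. It stood at 28559, 19013 and 22495 scaled counts in the uterus at 300 days, against 7, 5 and 3 at 120 days. Its log2 change was 11.96 ± 0.37 (SE, adjusted p = 5.74e-09, limma), within 1 SE of that of gene8291. In the magnum this gene was listed at 20, 18 and 21 at 300 days and at 0 in all 3 libraries of 120 days. Its 300-day magnum level was 0.0842% of that of the uterus.

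Of the 13 genes 3 more exceeded 3000 scaled counts on average in the uterus at 300 days. A gene of 6186 bases had 26206, 24588 and 12313 at 300 days against 523, 1032 and 550 at 120 days (log2 change 4.90 ± 0.49 SE, adjusted p = 0.000302, limma). It was the only 1 of the 13 that fell in the magnum, with a log2 change of -2.10 (adjusted p = 0.0102), and it was also well above 0 at 120 days in both segments, with 236, 1094 and 628 in the magnum. A gene of 1839 bases had 3484, 8548 and 3706 at 300 days against 76, 14 and 10 at 120 days (7.68 ± 0.71 SE, adjusted p = 0.000241). A gene of 2244 bases had 3377, 2845 and 4317 at 300 days against 52, 6 and 256 at 120 days. It met the filter of 10 or more in at least 3 libraries only through the 300-day uterus, so no test or fold is given for it. At 300 days these 3 genes stood in the magnum at 0.605%, 0.159% and 0.0285% of their uterus level. The remaining 8 genes averaged 17.0 to 105 scaled counts at 300 days and at most 2.33 at 120 days.

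Genes listed at 0 in all 3 uterus libraries of 1 age and at 10 or more in all 3 of the other were few. There were 4 such genes present at 300 days, at 11 to 68 scaled counts, and 4 present at 120 days, at 12 to 1029. They were chosen by these values, so no test or fold is given for them. A gene of 4115 bases was highest among those present at 120 days, at 0 in the 3 libraries of 300 days and at 105, 1029 and 298 at 120 days. In the magnum it stood at 0, 0 and 1 at 300 days and at 1, 8 and 2 at 120 days. All 4 genes listed at 0 in the uterus at 300 days were above 0 in at least 1 magnum library of 120 days. A listed 0 can hide a read, since values were truncated and 1 read was worth less than 1 in the uterus libraries in which it was resolved.

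Rises and falls were distributed unevenly over expression level. Among 4037 genes with a mean of 1000 to 10000 scaled counts over the uterus libraries, 12.8% rose and 4.21% fell, against 6.54% and 7.21% of all genes tested. Among the 126 genes at 10000 and more, 27 rose (21.4%) and 14 fell (11.1%). At 100 to 1000 scaled counts 4.47% of 7224 genes rose and 8.89% fell, and below 100 it was 3.06% and 7.07% of 3496 genes. The median log2 change over all genes of a band, called or not, was -0.26 below 100 and -0.0198 at 100 to 1000. It was 0.192 at 1000 to 10000 and 0.0854 at 10000 and more. Whether the calls follow such a shift of whole bands was not tested. More rises than falls in the 2 upper bands and more falls than rises in the 2 lower ones were also found after upper quartile scaling, after division by library totals and with FPKM values. In the band of 1000 to 10000 these gave 9.71%, 3.27% and 11.5% rises against 5.70%, 2.70% and 4.78% falls.

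By length, 8.30% of the 6568 genes of 4 kb and more rose and 7.54% fell, against 3.94% and 4.96% of the 1269 genes under 1 kb. Longer genes also had higher scaled counts, with medians of 653 in the longest band and 163 in the shortest. The median log2 change over all genes of a band was 0.0883 in the longest and -0.0702 in the shortest. Within the level band of 1000 to 10000, 13.9% of genes of 4 kb and more rose and 3.1% fell. Under 1 kb it was 10.7% and 5.58% in that level band. Over all levels, the excess of rises over falls in the longest band turned round after upper quartile scaling (6.20% rises, 9.23% falls), after division by totals (2.38% and 4.66%) and with FPKM values (7.34% and 7.64%). New-gene loci, with a median of 38.8 scaled counts, rose in 70 of 1114 cases (6.28%) and fell in 32 (2.87%). Among the 13769 numbered genes, with a median of 522, 903 rose (6.56%) and 1041 fell (7.56%).

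**Figure D4:**
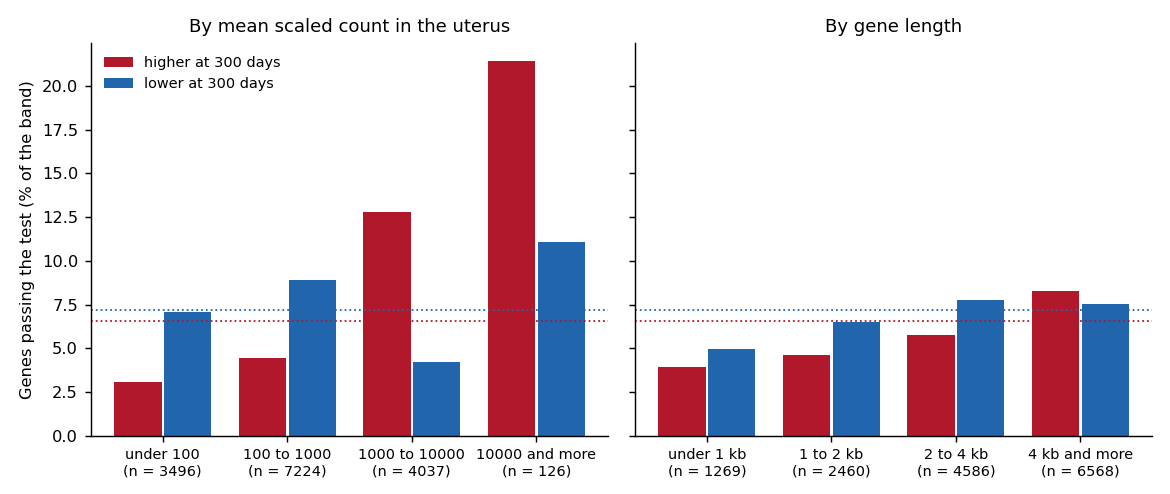
Share of genes that rose (red) or fell (blue) in the uterus at 300 days, in bands of mean scaled count over the 6 uterus libraries (left) and of gene length (right), as a percentage of the genes tested in each band. Dotted lines give the share over all genes tested, 6.54% rises and 7.21% falls. Rises exceed falls in the 2 upper level bands and falls exceed rises in the 2 lower ones.

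The uterus libraries of 300 days were more alike than those of 120 days. The median SD of a gene over the 3 libraries was 0.206 at 300 days and 0.402 at 120 days on the log2 scale, and 75.8% of genes had the larger SD at 120 days. Pairs of libraries correlated across genes, which are not independent replicates, between 0.964 and 0.975 for 300 days and between 0.889 and 0.939 for 120 days. On the first principal component of the 6 libraries, with 61.8% of the variance, the 300-day libraries stood at 64.0, 68.2 and 72.2. Replicates 1, 2 and 3 of 120 days stood at -15.0, -118.0 and -71.4, so that replicate 1 lay nearest to the older libraries and replicate 2 farthest.

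The same order was found on genes chosen without the library in question. When 120-day replicate 1 was left out, 1240 genes were called higher and 1387 lower at 300 days. On these genes the position of replicate 1 was read on the log2 scale, with 0% at the mean of the 300-day libraries and 100% at the mean of the other 120-day libraries. Its median position was 53.7% for the genes called higher and 52.3% for those called lower, and 674 and 741 of them (54.4% and 53.4%) lay past the midpoint on the 120-day side. Replicate 2 of 120 days, left out in the same way, stood at 121% and 120% (390 and 532 genes), and replicate 3 at 92.6% and 103% (467 and 559 genes). The 3 libraries of 300 days, left out in turn, stood at 89.6% to 99.4% of the way to their own age. The gene sets of these fits differ, and the 6 fits share most of their libraries. The 100% mark also changes with the library left out, and for replicates 2 and 3 of 120 days it includes replicate 1. Their positions are therefore not on 1 scale and are no separate check of the order.

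Among the genes called with all libraries, replicate 1 was the 120-day library nearest to the 300-day values in 663 of 973 rises (68.1%) and 796 of 1073 falls (74.2%). Replicate 2 was nearest in 99 rises and 121 falls, and replicate 3 in 211 rises and 156 falls. This is a description, since the same libraries chose these genes.

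**Figure D5:**
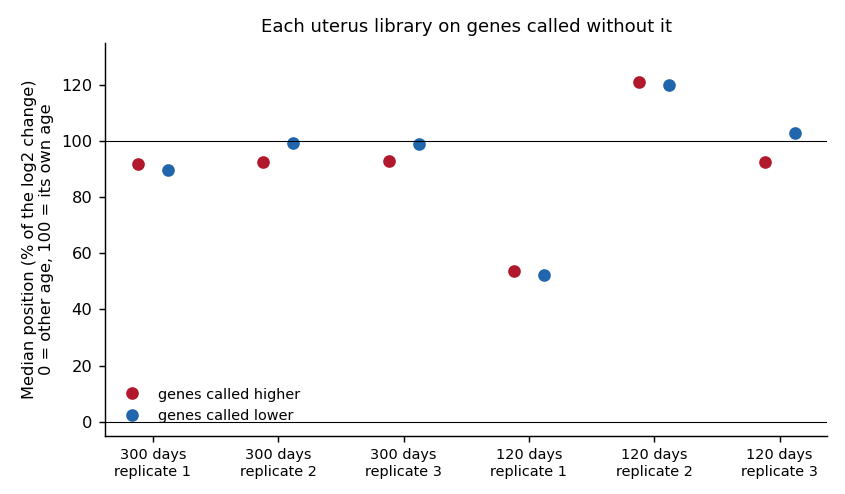
Median position of each uterus library, in percent of the log2 change, on genes called higher (red) or lower (blue) at 300 days in a fit without that library. At 0 the library would stand at the mean of the other age and at 100 at the mean of the remaining libraries of its own age. Replicate 1 of 120 days stands at 53.7% and 52.3%, the other 5 libraries at 89.6% to 121%.

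The age changes of the uterus were set beside those of the magnum, fitted in the same model. In the magnum 12.1% of genes rose and 13.6% fell. Its 120-day libraries were uneven too, with 38.47% of the scaled counts in the 10 leading genes of replicate 1. In replicates 2 and 3 that share was 5.94% and 5.05%. Of the uterus rises, 354 also rose in the magnum (36.4% of the uterus rises and 19.7% of the magnum rises), 43 fell there and 576 did not pass. Of the uterus falls, 672 also fell in the magnum (62.6% of the uterus falls and 33.2% of the magnum falls), 9 rose and 392 did not pass. The median magnum log2 change was 0.53 over the uterus rises and -1.61 over the uterus falls. Of the 108 uterus falls of at least 16-fold 89 also fell in the magnum, and of the 61 such rises 18 also rose there. The comparisons share no library, but both take the spread of a gene from 1 fit, and same-numbered uterus and magnum libraries of 120 days deviated together.

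A test of the difference in age change between uterus and magnum passed for 389 genes (2.61%). For 239 of them (1.61%) the log2 change was higher in the uterus and for 150 (1.01%) it was lower. Among the uterus rises, 121 had an age change higher in the uterus, 5 a lower one, and 847 did not pass this test. Among the uterus falls, 41 had a lower and 3 a higher change in the uterus, and 1029 did not pass. The uterus change that selected these genes is part of the difference tested, which favours the side of the call. The counts of this test come from the fit that does not pair libraries. With same-numbered uterus and magnum libraries of an age as a random block 1207 genes passed, and when each library was divided by its total 9024 passed. That division lowers all values of the 300-day magnum relative to the uterus. Totals there were 62260340, 77432154 and 44995822 scaled counts, against at most 17274374 in a uterus library, and 10 genes held 70.73%, 73.56% and 60.47% of them. How far this accounts for the 9024 was not tested.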

How the data were processed

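Total RNA of oviduct tissue was extracted with the RNAsimple kit and sequenced from Smarter mRNA-seq libraries, per the labels' protocols. The submitters' processing notes name TopHat2 2.0.8 and Cufflinks 2.0.2 besides FastQC 0.11.6, GATK 3.8 and Trimmomatic 0.32, with no role. Of genome build, annotation and counting rule, each is not given in the sources used here. How near-identical or overlapping genes split their reads is therefore unknown.

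The table of genes as deposited has whole numbers with median-of-ratios size factors of 0.974 to 1.01 and was treated as a score (a scaled count), not as raw counts. The deposited FPKM table served as an alternative. Groups came from the sample titles. The planned limma test (limma 3.58.1, R 4.3.3, trend, two-sided) took genes at 10 or more in at least 3 of 12 libraries, on log2(scaled count + 1), with an adjusted p below 0.05. Such fold changes understate the change of low genes. The value of 1 read was the step whose truncated multiples best described the histogram of values up to 60 (NumPy 2.4.6, pandas 2.3.3, Python 3.11.15). Exact permutation tests used SciPy 1.17.1 and plots matplotlib 3.10.9. Fits and step estimates were tested on simulated data.

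Genes given by identifier are the 2 rises with the highest 300-day mean and the 2 falls with the highest 120-day mean, among calls of at least 2-fold with non-overlapping libraries and no uterus group at 0. Genes given by length belong to the set with a group mean of at least 50000, or were chosen after their values were seen. The comparison, groups and lists were chosen with earlier results of these data known. Alternatives were the libraries fitted, leaving out each uterus library, replicate blocks, library weights, the filter, pseudocount, scaling and FPKM.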

Additional observations from a re-analysis of the deposited data

Results flagged for a closer look

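The age change differed between the uterus and the magnum for 389 genes, by the test of the difference between the 300 against 120 day changes of both segments (limma, adjusted p below 0.05). Of these, 219 genes had no call in the uterus itself, and 23 had a group with a listed 0 in each of its libraries.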

How the results depend on the processing

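Against 973 rises, 1073 falls and 389 differences from the magnum, leaving out 1 uterus library gave 390 to 1240 rises, 532 to 1387 falls and 118 to 561 differences. Without replicate 1 of both segments at 120 days the counts were 1501, 1624 and 967. Division by library totals gave 320 rises and 9024 differences. Of the 2046 calls 0 passed in the opposite direction in any of the 17 alternatives, and 3 had the opposite sign, without passing, with FPKM values at a pseudocount of 1. Same-numbered uterus libraries of the 2 ages did not deviate together (correlations of -0.0187, -0.0812 and -0.0122). So few pairs cannot settle whether the numbers mark a shared batch. With the replicate number as a block 951 rose and 1095 fell. Same-numbered uterus and magnum libraries correlated at 0.361, 0.591 and 0.39 at 120 days and 0.198, 0.216 and 0.0838 at 300 days, and with these pairs as a random block 972 rose, 1120 fell and 1207 differed between segments. The fit of the 6 uterus libraries alone called 797 rises and 888 falls, of which 675 and 777 were among those of the full fit. The calls of gene8291, gene11472 and gene24026 passed in all 17 alternatives, with log2 changes of 10.80 to 12.25, -4.51 to -4.14 and -5.18 to -4.22. Where counts changed, the cause was not tested. The share of the 10 leading genes was higher at 300 days by 3.44 percentage points, and by 2.53 to 4.05 without 1 library. How the unresolved depth of 1 library bears on calls at low values was not tested.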

Other observations

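Consecutive identifier numbers moved together weakly in the uterus. Over 8586 pairs of tested genes with consecutive numbers both rose in 70 pairs and both fell in 83, against 30 and 48 of 6977 pairs whose numbers lay 1000 apart. The files do not say what the numbering follows, and genes are not independent replicates. The gene table listed 0 for 3544 uterus values that were above 0 in the FPKM table, and the reverse was found for 0 values. The sign of the age change differed between the 2 tables for 3 of the 2046 calls.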
